A study of Mus musculus with 29 samples.

Results

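The 10 transcription factor genes described here were Tbx15, Tcf21, Wt1, Gata4, Gata6, Shox2, En1, Nr2f1, Nr2f2 and Tbx18, taken by symbol from the 56953 gene rows of the count table. All 10 were found in the table by their Ensembl identifier. They were read in 29 libraries of cultured crude SVF (stromal vascular fraction), which holds the stromal, vascular and immune cells left when digested white fat is cleared of adipocytes. The fat was inguinal (iWAT), which lies under the skin, or perigonadal (pgWAT), which lies in the abdominal cavity. The mice were adult C57BL6/J, and the groups were iWAT male with 10 libraries, iWAT female with 9, pgWAT male with 4 and pgWAT female with 6. These sizes follow the sample labels, while the study's methods give other sizes for every group except iWAT female. The labels give no transgene or drug for any group, and all cells had been kept for 4 days in PM1 medium with 1 nM basic FGF. The wells came from a few independent cell preparations, and the labels do not say which, so p-values measure the spread between wells.

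White fat depots arise from different parts of the embryonic mesoderm, and their stromal cells keep expressing some of the transcription factors that patterned those parts. T-box genes (Tbx15, Tbx18), homeobox genes (Shox2, En1) and the COUP nuclear receptors (Nr2f1, Nr2f2) pattern the limb, the body wall, the skin or vessels. The GATA zinc finger genes (Gata4, Gata6), the basic helix-loop-helix gene Tcf21 and the zinc finger gene Wt1 are active in the mesoderm that lines the body cavity and in the organs that form from it. Factors of both kinds are commonly used as depot markers of adipose stem cells (ASC), the fibroblast-like progenitors of fat cells.

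Total counts per library ran from 315316 to 1102234, so that 3 counts in a library made 2.58 to 9.76 CPM (counts scaled by library total and TMM factor). At this depth transcription factor genes are thinly counted, and 4 of the 10 factors (Tbx15, Tcf21, Wt1 and Nr2f2) passed the low-count filter. The fibroblast and ASC markers Col1a1, Col3a1, Dcn, Lum, Pdgfra and Fn1 were all detected, with a summed level of 6387 to 12199 CPM in iWAT and 11686 to 22688 CPM in pgWAT. Sex-linked transcripts matched the labels in 19 of 19 iWAT libraries and in 5 of 10 pgWAT libraries. Replicates 2 and 4 of pgWAT male and replicates 2 and 3 of pgWAT female went against their labels, and pgWAT female replicate 1 held both Xist and Y-linked transcripts. The depot of a library does not rest on these genes, and depot values without those 5 libraries are given beside those of the factors tested there.

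**Figure D1:**
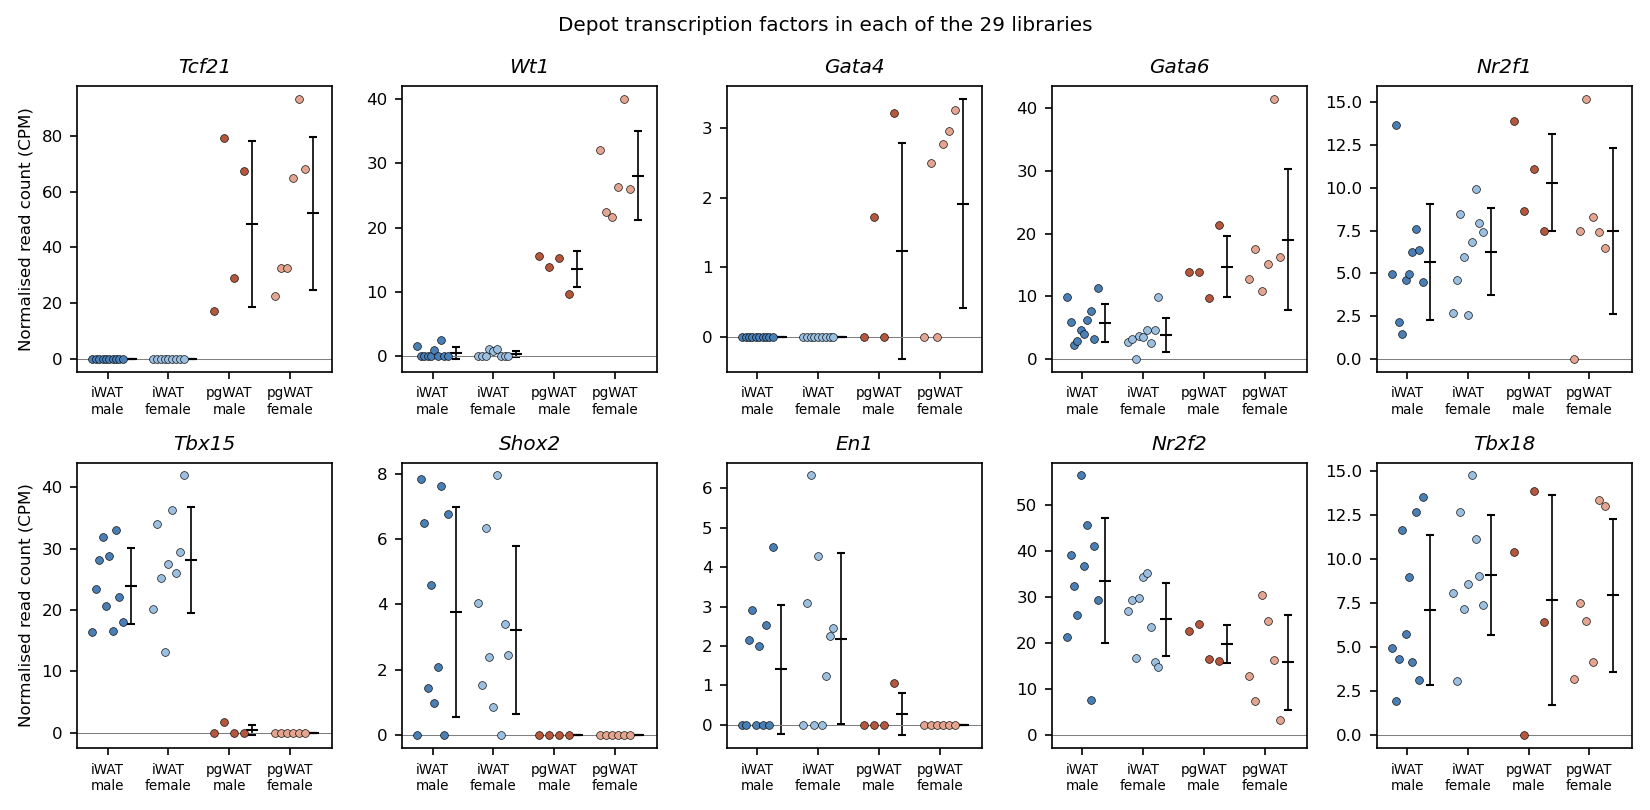
Normalised read count (CPM, linear axes from 0) of each factor in each of the 29 libraries, by depot and labelled sex. Points are libraries, and bars beside them give the mean and SD of the group. Tcf21, Wt1 and Tbx15 separate the 19 iWAT from the 10 pgWAT libraries without overlap, whereas the ranges of Nr2f1 and Tbx18 overlap between the depots. The share of all genes that separate the depots in this way was not counted.

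The main question was which of these factors differ between the depots in culture. With both sexes weighted equally, 4 of the 4 factors that passed the filter differed between pgWAT and iWAT at a false discovery rate (FDR) of 0.05, 2 of them higher in pgWAT (Tcf21 and Wt1) and 2 lower (Tbx15 and Nr2f2). Over all 8853 genes tested, 38.1% passed the same threshold, 20.1% higher and 17.9% lower, so a depot difference as such was common in these libraries. Changes beyond 4 on the log2 scale, as Tcf21, Wt1 and Tbx15 had, were seen in 0.542% of the genes tested, and the median over all genes was 0.01. These 3 factors passed the filter through the depot in which they are high, so their count is a description and no support of its own. Their values also did not overlap between the depots, and how many of all genes share that trait was not counted. Without the filter, which lets in all 10 factors, 8 of 10 passed and 13.9% of the 26512 genes with a count did.

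Tcf21, a basic helix-loop-helix factor of visceral mesenchyme, was counted in every pgWAT library and in no iWAT library. The 4 libraries labelled pgWAT male had 17.4, 79.5, 29.2 and 67.5 CPM (10, 46, 21 and 63 counts). The 6 labelled pgWAT female had a lowest value of 22.4, a median of 48.8 and a highest of 93.4 CPM. The depots therefore did not overlap, although the pgWAT libraries spread widely around their mean of 50.8 ± 26.8 CPM (SD, n = 10). A count of 0 summed over 19 iWAT libraries allows up to 0.241 CPM. Against that limit, of 3 counts over the whole depot, Tcf21 was at least 219.8-fold higher in pgWAT, with an FDR of 1.72e-09 by edgeR's quasi-likelihood test (1.49e-08 without the 5 libraries that did not match their sex label).

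Wt1 encodes a zinc finger factor of the mesothelium, the cell layer that covers visceral organs and visceral fat, and of the embryonic kidney and gonad. It had 15.6, 13.8, 15.3 and 9.64 CPM in the 4 libraries labelled pgWAT male, and a lowest of 21.7, a median of 26.2 and a highest of 40.0 CPM in the 6 labelled pgWAT female. In iWAT it had 1 count in each of 6 libraries and 0 in the other 13, and the highest iWAT value was 2.54 CPM. All 10 pgWAT libraries were thus above all 19 iWAT libraries, with a log2 fold change of 4.88 (SE 0.35, FDR 3.88e-13), or 5.04 (SE 0.45, FDR 3.78e-10) without the same 5 libraries. Summed counts per library total were 43.1-fold higher in pgWAT (exact 95% counting interval 19.2 to 119.8). Intervals and limits of this kind treat each read as an independent count. They leave out the spread between wells and any repeated reading of amplified copies of 1 molecule, so they are narrower than the full error.

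Tbx15, a T-box factor of limb, skin and subcutaneous tissue, was the mirror image of these. It had 16.5 to 33.0 CPM in iWAT male (median 22.8) and 13.1 to 41.9 CPM in iWAT female (median 27.5). In pgWAT it had a single count, in pgWAT male replicate 2 (1.73 CPM), and 0 in the other 9 libraries. All 19 iWAT libraries were above all pgWAT libraries, with a log2 fold change of -6.29 (SE 0.43, FDR 1.59e-12). Without the 5 libraries that did not match, which include the one with the count, the FDR was 6e-10. Summed counts per library total, 328 against 1, were 152-fold higher in iWAT, and the interval of 27.1 to 6029 shows how loosely 1 count fixes that ratio.

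Nr2f2 encodes COUP-TFII, an orphan nuclear receptor of veins and of mesenchyme in many organs. It was present in all 29 libraries, with a mean and SD of 33.6 ± 13.6 CPM in the 10 iWAT male, 25.2 ± 7.85 in the 9 iWAT female, 19.9 ± 4.12 in the 4 pgWAT male and 15.9 ± 10.3 in the 6 pgWAT female libraries. The depots overlapped, with 8 of 19 iWAT libraries above all pgWAT libraries and 2 of 10 pgWAT libraries below all iWAT libraries. The log2 fold change was -0.69 (SE 0.23, FDR 0.0179). This call was lost with well column as a term (FDR 0.1, where 30.6% of genes passed) and without the 5 pgWAT libraries that did not match their sex label (FDR 0.0757, where 23.7% passed). The deposited estimates of Nr2f2 were not whole in 6 of 29 libraries (tolerance 0.001), those of the other 9 factors were whole, and an antisense-strand neighbour, B130024G19Rik, shares 643 exonic bases with it and had 96 iWAT and 27 pgWAT counts of its own. Counting is not stated to have used strand, so reads within bases shared by such genes cannot be told apart, for Nr2f2 or for the factors with such neighbours named below.

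Gata6, 1 of the 6 factors under the filter, is a zinc finger factor of lateral mesoderm and of its derivatives. It had 13.9, 13.8, 9.72 and 21.4 CPM in the libraries labelled pgWAT male and 10.8 to 41.5 CPM in those labelled pgWAT female (median 15.7). In iWAT it ran from 2.16 to 11.3 CPM in male (median 5.24) and from 0 to 9.87 CPM in female (median 3.44). The ranges touched, with 8 of 10 pgWAT libraries above every iWAT library. Summed counts per library total were 3.89-fold higher in pgWAT (interval 2.79 to 5.48, 103 against 57 counts), and the fit without the filter gave a log2 fold change of 1.85 (SE 0.32, FDR 1.04e-06). Without the 5 libraries that did not match their sex label Gata6 passed the filter, at 1.85 (SE 0.37, FDR 0.000334). The filter asks for a level in as many libraries as the smallest group holds, and that group was smaller there. Gata6 passed it through pgWAT, where it is high, so this is no support of its own. An antisense-strand neighbour, 1010001N08Rik, shares 93 exonic bases with Gata6 and had 8 iWAT and 23 pgWAT counts.

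Gata4, its close relative, was much rarer. No iWAT library held a count of it (0 of 19), and 6 of the 10 pgWAT libraries together held 10, with 0, 1, 0 and 3 in those labelled male and 0 to 2 in those labelled female. Its rate in pgWAT was at least 7.18-fold above the iWAT limit of 3 counts (FDR 0.000132 without the filter). In the 4 pgWAT libraries without a Gata4 count, 3 counts would make 4.17 to 9.60 CPM, above every value measured, so an absence there was not detectable at this depth.

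Shox2, a homeobox factor of the proximal limb and the heart, and En1, a homeobox factor of limb ectoderm and of the trunk dermis lineage, lay on the iWAT side. Shox2 had 41 counts over 16 of 19 iWAT libraries, from 0 to 7.82 CPM in male (median 3.34) and 0 to 7.94 CPM in female (median 2.47). No pgWAT library held a count (0 of 10), which put Shox2 at least 6.34-fold higher in iWAT (FDR 0.000143 without the filter). Shox2 shares 153 exonic bases with the opposite-strand gene Rsrc1, which had 481 iWAT and 127 pgWAT counts. En1 had 22 counts over 11 of 19 iWAT libraries and 1 count in pgWAT, in the library labelled male replicate 4. Its ratio was 10.2-fold in favour of iWAT, but with an interval of 1.65 to 421 (FDR 0.0235 without the filter).

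Nr2f1 and Tbx18 were under the filter and did not pass in the fit without it. Nr2f1, which encodes COUP-TFI, had 5.94 ± 2.94 CPM in iWAT (SD, n = 19) and 8.60 ± 4.22 in pgWAT (n = 10), with a log2 fold change of 0.59 (SE 0.37, FDR 0.373 without the filter). Its ratio of summed counts was 1.53 (interval 1.05 to 2.22), and 2 of 10 pgWAT libraries lay above every iWAT library. The interval of that ratio ignores the spread between wells, which the fit includes. The antisense gene A830082K12Rik shares 123 exonic bases with Nr2f1 and had 142 iWAT and 46 pgWAT counts. Tbx18, a T-box factor of mural cells and of the heart's outer layer, had 8.06 ± 3.90 CPM in iWAT and 7.84 ± 4.72 in pgWAT. Its log2 fold change was -0.06 (SE 0.35), and its ratio of summed counts, 1.08 in favour of iWAT, had an interval of 0.757 to 1.57. The opposite-strand gene D030062O11Rik shares 970 exonic bases with Tbx18 and had 4 iWAT counts and 1 pgWAT count.

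**Figure D2:**
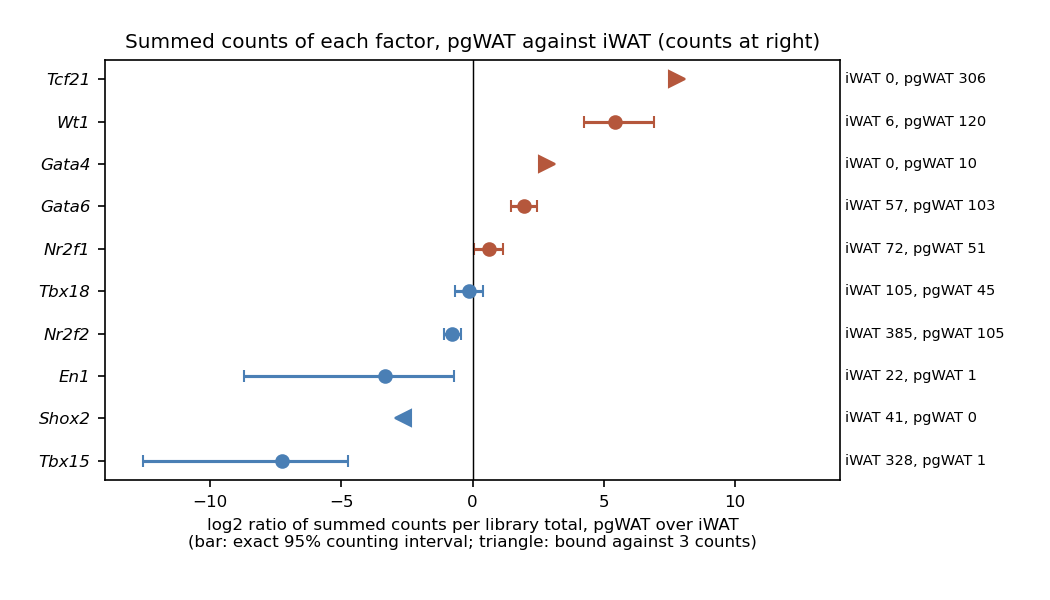
Ratio of each factor's summed counts per library total, pgWAT over iWAT, on a log2 axis, with the summed counts of each depot at the right. Circles carry exact 95% counting intervals, and triangles are lower bounds on the size against 3 counts for factors at 0 in a depot. Tcf21, Wt1, Gata4 and Gata6 lie on the pgWAT side, Tbx15, Shox2, En1 and Nr2f2 on the iWAT side, and the interval of Tbx18 spans equality.

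The promoters of factors that were all but absent from a depot can be set beside that of a factor with no depot difference detected. RefSeq promoter sequences (GRCm38.p6, gene strand, 250 bases before to 50 bases after the start) were at hand for 6 of the 10 factors. The promoters of Tcf21, which was not counted in iWAT, of Shox2 and En1, which had 0 and 1 counts in pgWAT and of Tbx18, which did not pass, are shown. Capitals mark matches on either strand to CANNTG (the E-box core bound by basic helix-loop-helix factors), AGATAA (the motif of the zinc finger family of Gata6), AGGTGTGA (T-box), AGGTCA (nuclear receptors), TAATTA (homeobox), TATAAA (the core promoter element) and GGGCGG (GC box). No match overlapped another.
Tcf21, chr10:22820094-22820393, minus strand: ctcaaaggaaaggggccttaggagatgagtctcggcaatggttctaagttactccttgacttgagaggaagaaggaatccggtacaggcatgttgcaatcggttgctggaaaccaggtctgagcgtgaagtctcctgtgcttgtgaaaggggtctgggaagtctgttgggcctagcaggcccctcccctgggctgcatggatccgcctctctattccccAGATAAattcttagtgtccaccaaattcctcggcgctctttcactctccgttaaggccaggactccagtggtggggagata
Shox2, chr3:66981722-66982021, minus strand: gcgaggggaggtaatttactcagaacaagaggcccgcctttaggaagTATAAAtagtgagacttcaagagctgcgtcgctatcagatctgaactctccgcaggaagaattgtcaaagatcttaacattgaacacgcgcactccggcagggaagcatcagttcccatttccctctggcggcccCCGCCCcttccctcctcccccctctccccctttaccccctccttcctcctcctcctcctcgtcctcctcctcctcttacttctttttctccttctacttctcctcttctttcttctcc
En1, chr1:120602237-120602536, plus strand: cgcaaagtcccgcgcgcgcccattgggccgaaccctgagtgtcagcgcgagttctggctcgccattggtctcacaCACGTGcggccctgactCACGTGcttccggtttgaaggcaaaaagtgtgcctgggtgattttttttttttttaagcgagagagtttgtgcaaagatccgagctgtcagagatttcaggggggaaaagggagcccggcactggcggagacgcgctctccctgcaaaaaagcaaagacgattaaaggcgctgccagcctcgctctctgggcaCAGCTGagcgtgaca
Tbx18, chr9:87731211-87731510, minus strand: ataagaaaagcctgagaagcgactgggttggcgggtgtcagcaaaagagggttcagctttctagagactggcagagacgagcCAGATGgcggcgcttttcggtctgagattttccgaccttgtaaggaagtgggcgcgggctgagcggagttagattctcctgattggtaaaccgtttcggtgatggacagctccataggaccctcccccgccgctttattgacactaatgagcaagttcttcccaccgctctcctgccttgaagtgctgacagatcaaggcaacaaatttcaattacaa

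The Tcf21 promoter held AGATAA once, 31 bases before the start, and none of the other motifs, and 11.2% of the 32851 RefSeq promoters of this length hold AGATAA. The Shox2 promoter held TATAAA, 203 bases before the start (13.6% of all promoters hold it), and GGGCGG on the other strand, 68 bases before it (35.7%). The En1 promoter held CANNTG 3 times, which 72.3% of all promoters hold, and as CACGTG in both upstream matches. Tbx18 had CANNTG once, 168 bases before the start. The T-box, nuclear receptor and homeobox motifs, held by 1.28%, 16.3% and 5.29% of all promoters, were found in none of these 4 sequences. CG dinucleotides numbered 8 in Tcf21, 11 in Shox2, 23 in En1 and 15 in Tbx18, against a median of 7. These are matches of letters and not sites.

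Levels of different factors were compared per kb of transcript (CPM divided by the length of the longest coding transcript of GENCODE vM21). In pgWAT the highest mean level was that of Tcf21, at 28.4 ± 15.0 CPM per kb (SD, n = 10). Wt1 (7.21 ± 2.98), Gata6 (5.35 ± 2.82) and Nr2f2 (4.14 ± 1.97) followed, each within 1 SD of its neighbour. Nr2f1 (2.68 ± 1.31) and Tbx18 (1.68 ± 1.01) were lower, and Gata4 (0.483 ± 0.434) lower still. In iWAT (n = 19), Tbx15 (7.28 ± 2.12) and Nr2f2 (7.02 ± 2.79) had the highest levels and did not differ beyond their spread. Nr2f1 (1.85 ± 0.917), Tbx18 (1.72 ± 0.833), Gata6 (1.496 ± 0.916) and Shox2 (1.14 ± 0.928) came next, again within their spread of each other, followed by En1 (0.678 ± 0.722) and Wt1 (0.142 ± 0.240).

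**Figure D3:**
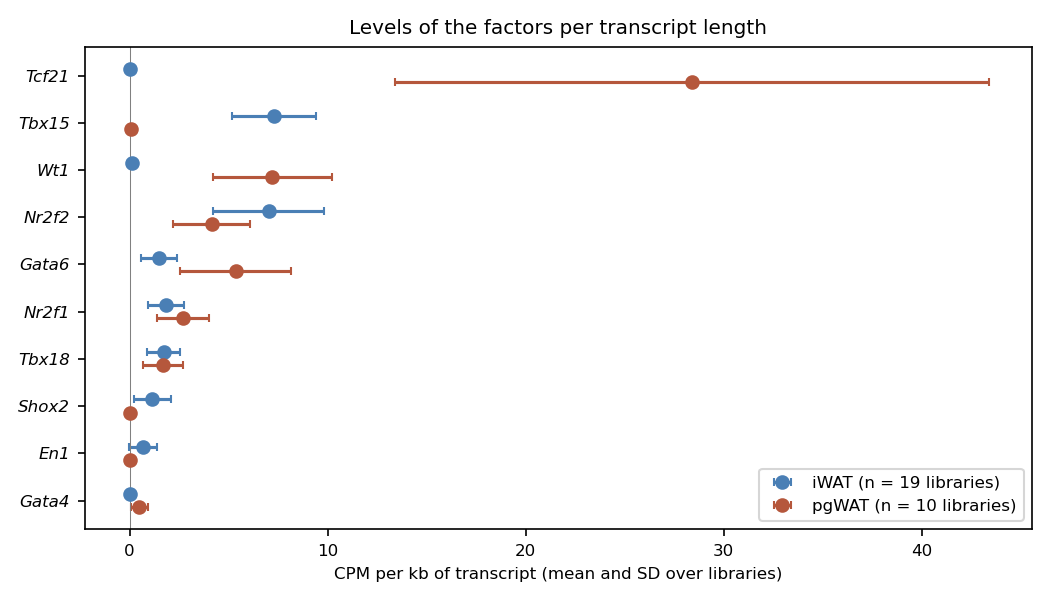
Level of each factor per kb of transcript (mean and SD over libraries, linear axis) in iWAT (n = 19) and pgWAT (n = 10). Tcf21 leads in pgWAT at 28.4 CPM per kb, Tbx15 and Nr2f2 lead in iWAT at 7.28 and 7.02, and Gata4 stays below 1 in both depots.

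Within each sex the same direction was asked again. The sexes here are those of the labels, which 5 of the pgWAT libraries did not match. In male, Tcf21, Wt1 and Tbx15 passed (3 of 4 tested, 20.3% of all genes), and in female the same 3 did (26.8% of all genes). The log2 fold change of Wt1 was 4.25 (SE 0.53, FDR 3.49e-07) in male and 5.50 (SE 0.46, FDR 3.92e-11) in female. For Tbx15 it was -5.44 (SE 0.58, FDR 4.67e-08) in male and -7.14 in female (SE 0.64, FDR 1.11e-09), where every pgWAT library labelled female was at 0 and the fitted value is no bound. Nr2f2 had -0.80 (SE 0.34, FDR 0.0895) in male and -0.59 (SE 0.32, FDR 0.183) in female. Without the filter, Gata4 and Shox2 passed as well in male (5 of 10 factors, 6.91% of 26512 genes), and Gata4, Gata6 and Shox2 in female (6 of 10, 8.72%). With the filter but without the 5 libraries that did not match, Tcf21 had an edgeR FDR of 1.65e-05 in male and 4.5e-08 in female. Wt1 then had log2 fold changes of 4.43 (SE 0.69) and 5.65 (SE 0.57). Tbx15 had -6.98 and -7.19, with 0 counts left in pgWAT, and Nr2f2 -0.84 (SE 0.44) and -0.62 (SE 0.40). Gata6, which passed the filter there through pgWAT, had 1.00 (SE 0.57, FDR 0.316) in male and 2.71 (SE 0.45, FDR 4.7e-05) in female. Over all 29 libraries, as labelled, a depot difference that itself differed between the sexes was not detected. The interaction term of edgeR had 0 of 4 at FDR 0.05 and 0 at an unadjusted p of 0.05. Of all genes, 0.181% passed at FDR 0.05. DESeq2 and limma-voom also called 0 of 4, and limma-voom had 1 factor, Wt1, at an unadjusted p below 0.05. Without the 5 libraries that did not match, edgeR called none and had 1 factor, Gata6, at an unadjusted p below 0.05. Its interaction there was -1.70 (SE 0.74, FDR 0.333). These interaction results say nothing of Tcf21, whose interaction cannot be estimated because every iWAT library is at 0, and little of Tbx15, with 1 count in pgWAT.

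Between the sexes in iWAT no factor passed (edgeR, 0 of 4 at FDR 0.05 and 0 at an unadjusted p of 0.05, against 3.22% of all genes at FDR 0.05), and DESeq2 and limma-voom called none either. Tcf21, at 0 in every iWAT library, could not have passed, and Wt1, with 3 counts in iWAT male and 3 in iWAT female, hardly could. The male minus female log2 difference was -0.21 (SE 0.22, FDR 0.701) for Tbx15 and 0.40 (SE 0.25, FDR 0.452) for Nr2f2. In pgWAT 0 of 4 factors passed by edgeR or limma-voom (0.0113% of all genes passed by edgeR), and DESeq2 gave none of the 4 an adjusted p. Tbx15, with 1 count over the pgWAT libraries, could hardly have passed. By each tool 1 factor, Wt1, had an unadjusted p below 0.05. That Wt1 difference was -1.06 by edgeR (SE 0.39, FDR 0.416) and -1.10 by limma-voom (SE 0.24, FDR 0.0562), and all 6 libraries labelled female lay above all 4 labelled male. The share of all genes that separate the labelled groups in this way was not counted. The split is one of labels, which 5 of these libraries did not match. With 2 male and 3 female pgWAT libraries left after those not matching their sex label were taken out, 0 of 5 factors passed and 5.63% of 9516 genes did. Tbx15 was at 0 in those libraries and could not have passed. The male minus female log2 difference of Tcf21 was -0.14 (SE 0.43, FDR 0.963) over all 10 pgWAT libraries. With well column as a term it was -2.06. Since Tcf21 is at 0 in iWAT, that value rests on column 8, the only column with pgWAT libraries of both labels. There a single library, pgWAT male replicate 1, is labelled male. Without the libraries not matching their sex label the difference was -1.72 (SE 0.50, FDR 0.0636). That fit had 17.4 and 29.2 CPM in the male libraries and 65.0, 93.4 and 68.3 CPM in the female, and includes all pgWAT libraries of column 8. In that last fit Gata6 was at -1.12 (SE 0.61, FDR 0.387) and Wt1 at -1.03 (SE 0.62, FDR 0.446).

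Because 5 of the pgWAT libraries did not match their sex label, the Tcf21 level is given beside their sex-linked transcripts, as values with no test. The libraries labelled pgWAT male replicates 2 and 4, with 41.5 and 64.2 CPM of Xist and 1 and 0 counts of Y-linked genes, had 79.5 and 67.5 CPM of Tcf21. Those labelled pgWAT female replicates 2 and 3, with 0 counts of Xist and 57.5 and 56.4 CPM of Y-linked genes, had 32.5 CPM each. The mixed library, pgWAT female replicate 1, had the second lowest value, 22.4 CPM. Wt1 did not follow the same order, since it was 13.8 and 9.64 CPM in the former pair and 22.5 and 21.7 CPM in the latter. These pairs also differ in well column, 9 for the former and 10 for the latter. In column 8, the library labelled male replicate 1, with 59.0 CPM of Y-linked genes and 0 counts of Xist, had 17.4 CPM of Tcf21, and the 3 labelled female, with 71.6 to 85.9 CPM of Xist, had 65.0 to 93.4 CPM.

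**Figure D4:**
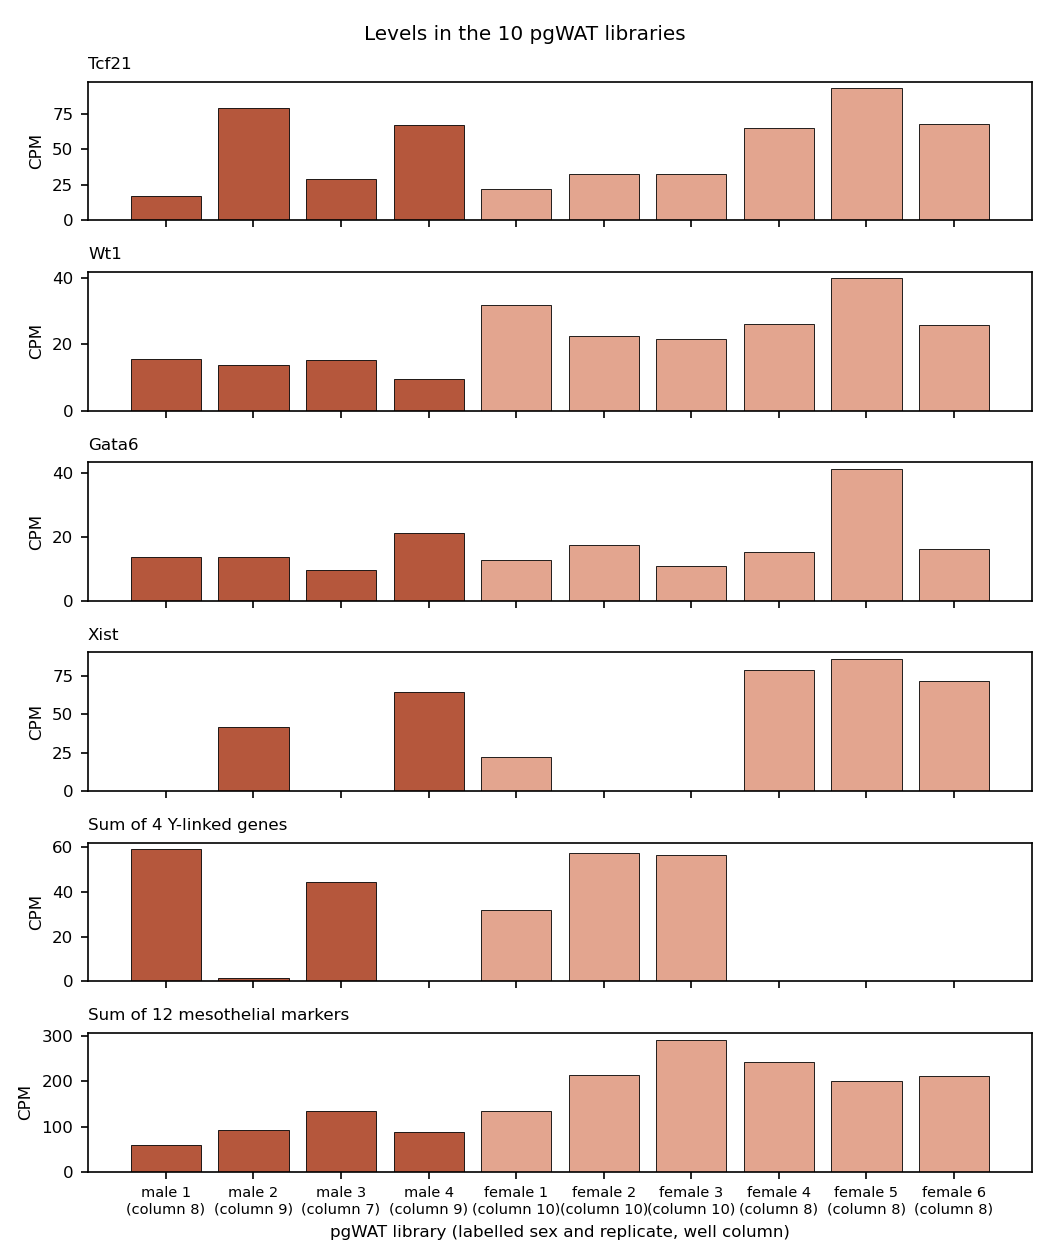
Normalised read counts (CPM, bars from 0) of Tcf21, Wt1, Gata6, Xist, the sum of 4 genes on the Y chromosome (Uty, Kdm5d, Ddx3y and Eif2s3y) and the summed 12 mesothelial markers in the 10 pgWAT libraries, dark bars labelled male and light bars labelled female. Tcf21 is highest in the 5 libraries with the most Xist (65.0 to 93.4 CPM), while Wt1 is higher in all 6 libraries labelled female than in the 4 labelled male. Of these 10 libraries 5 did not match their sex label, and the share of all genes that split in either way was not counted.

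Wells of iWAT and pgWAT sat together in all 4 well columns, with 11 and 1 libraries in column 7, 3 and 4 in column 8, 4 and 2 in column 9, and 1 and 3 in column 10. In column 8, Tcf21 ran from 17.4 to 93.4 CPM in pgWAT and was at 0 in iWAT, Wt1 was 15.6 to 40.0 against 0 to 1.13, and Tbx15 was 0 against 26.0 to 36.3. A fit within column 8 called Tcf21, Wt1, Tbx15 and Gata6 (log2 fold change 2.47, SE 0.56, FDR 0.016) but not Nr2f2 (-0.44, SE 0.43, FDR 0.605), where 7.97% of all genes passed. Within column 9, Tcf21 (67.5 and 79.5 CPM against 0) and Tbx15 (0 and 1.73 against 16.6 to 41.9) passed, Wt1 (9.64 and 13.8 against 0 to 0.996) was under the filter, and 22.2% of all genes passed. Nr2f2 was at -0.75 there (SE 0.41, FDR 0.215). Both fits had depot as their only term and left out sex. In column 8 the 3 iWAT libraries were all female while pgWAT had both labels, and Gata6 passed the filter through pgWAT. In column 9 both pgWAT libraries went against their sex label. In columns 7 and 10 a depot had a single well, and there too Tcf21 was counted in pgWAT only.

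Wt1 is a marker of mesothelial cells as well as of visceral ASC, and crude SVF can hold both, so the mesothelial list was read beside it. Of its 12 genes, 11 had a count in pgWAT (Calb2 was at 0) and 10 in iWAT (Lrrn4 and Muc16 were at 0), with a summed level of 59.0 to 293 CPM in pgWAT and 3.91 to 1451 CPM in iWAT. The iWAT sum was nearly all keratin (Krt8, Krt18 and Krt19, with 689, 546 and 273 counts). It was 3.91 to 56.3 CPM in iWAT male and 40.7 to 1451 CPM in iWAT female. The mesothelial surface markers Upk3b, Upk1b, Lrrn4 and Msln had 231, 121, 62 and 53 counts in pgWAT against 1, 2, 0 and 13 in iWAT. Of the rest, Rspo1 had 63 counts in pgWAT against 3. Bnc1 was alike in both (mean 1.80 CPM in pgWAT and 2.00 in iWAT). Gpm6a had 3 counts against 4, Muc16 1 against 0 and Calb2 0 against 1, so the list did not go 1 way. Within pgWAT the summed level was 59.0 to 135 CPM in the libraries labelled male, with less Wt1, and 134 to 293 CPM in those labelled female, with more. The part of mesothelial cells in the Wt1 and Tcf21 levels was not tested, and in bulk libraries fewer cells of a type and less RNA per cell cannot be told apart.

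Other marker lists overlapped between the depots. Macrophage genes (6 of 6 counted) summed to 642 to 2493 CPM in iWAT and 748 to 8011 in pgWAT, endothelial genes (6 of 6) to 69.6 to 191 and 97.6 to 202, and pericyte and smooth muscle genes (9 of 9), of the mural cells in which Tbx18 is known, to 629 to 3613 and 1237 to 3037. Epithelial genes (6 of 6) summed to 0 to 728 CPM in iWAT and 1.74 to 128 in pgWAT, mature adipocyte genes (5 of 5) to 0 to 43.0 and 0 to 41.7, and Schwann and glia genes to 0 to 18.1 (4 of 4) and 0 to 9.60 (2 of 4, Sox10 among those at 0 in pgWAT). Within iWAT the epithelial sum was 0 to 2.99 CPM in male and 20.4 to 728 CPM in female. The part of these cell types in the levels of the 10 factors was not tested.

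The genes whose profile over all 29 libraries was most like that of each tested factor were found by the root mean square (RMS) difference of z-scored log2 CPM. For Tcf21 these were Upk3b (RMS 0.17), a uroplakin of mesothelium, Ackr4 (0.21), an atypical chemokine receptor, and Sema3d (0.30), a secreted guidance protein. For Wt1 they were Ackr4 (0.23), Upk3b (0.28) and Saa3 (0.30), a serum amyloid A protein. For Tbx15 they were Rpl39l (0.31), a ribosomal protein, Slc14a1 (0.31), a urea transporter, and Gap43 (0.32), a growth-associated protein of neurons. Nr2f2 had no gene as near, its first being BC055324 (0.72), Ufl1 (0.75) and Srbd1 (0.76). Over the depot where each factor was higher, other genes came first, namely Fzd7, Polb and Antxr1 for Tcf21 (0.33 to 0.34 over 10 libraries), Pex6, Slc2a1 and Arhgap35 for Wt1 (0.31 to 0.50), Dram1, Mrpl40 and Gatad2b for Tbx15 (0.73 to 0.74 over 19 libraries) and Cwc27, Prkra and Max for Nr2f2 (0.58 to 0.61). For none of the 4 factors did a gene stand among the first 3 both over all libraries and within the depot.

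Genes of the same families and regions were read from lists of 98 further genes, of which 83 had a count and 22 passed the filter. Of the 22, 6 were higher in pgWAT, 7 lower, and 9 did not pass, with a median log2 fold change of -0.12. Over all genes tested 20.1% were higher and 17.9% lower, and the E proteins described below stand against that same 17.9%. Among T-box genes only Mga passed the filter (1 of 15), at 0.07 (SE 0.23, FDR 0.83), and Tbx5, a factor of heart and forelimb, had 66 counts in iWAT and 0 in pgWAT. Among GATA genes and their FOG cofactors 1 of 6 was tested, Gata2, a factor of blood and endothelium, and rose in pgWAT from 3.72 ± 2.64 to 14.8 ± 7.46 CPM (log2 fold change 1.97, SE 0.36, FDR 4.47e-05). None of the 5 other NR2 receptors passed the filter.

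Of 33 body wall and limb genes, 4 were tested. Meox1, a homeobox gene of the somites, was lower in pgWAT (35.2 ± 28.2 against 2.57 ± 2.31 CPM, log2 fold change -3.89, SE 0.59, FDR 2.23e-06), as was Twist2, a dermal fibroblast factor (-0.91, SE 0.32, FDR 0.0228). The Twist2 call was lost without the 5 pgWAT libraries that did not match their sex label (-0.66, SE 0.33, FDR 0.157) and without pgWAT male replicate 4 (-0.79, SE 0.33, FDR 0.0606). Prrx1 (FDR 0.0508) and Hic1 (FDR 0.0575), general factors of mesenchyme, missed the threshold at -0.37 (SE 0.15) and -0.39 (SE 0.17), and passed in the fit without the filter (FDR 0.0284 and 0.0386). Lhx8 had 40 counts in iWAT and 0 in pgWAT, and Alx1 had 0 in iWAT and 15 in pgWAT, both under the filter. Of 22 visceral and coelomic genes, 5 were tested, with 1 higher, 1 lower and 3 that did not pass. The higher one was Klf4, a zinc finger factor, with a log2 fold change of 1.46 (SE 0.20, FDR 5.24e-07).

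Of 9 DNA-binding partners, 8 were tested, with 3 higher, 3 lower and 2 that did not pass. The E proteins, which pair with Tcf21 and other tissue-specific helix-loop-helix factors, were lower in pgWAT in 3 of 3 cases. The log2 fold changes were -0.74 for Tcf3 (SE 0.16, FDR 0.000276), -0.65 for Tcf4 (SE 0.14, FDR 0.00028) and -0.90 for Tcf12 (SE 0.16, FDR 2.37e-05). Of the homeobox cofactors, Meis1 rose by 1.00 (SE 0.17, FDR 1.31e-05) and Meis2 by 1.13 (SE 0.22, FDR 9.37e-05), while Pbx2 (-0.15) and Meis3 (0.12) did not pass. Of 8 genes reported downstream of WT1 in other tissues, 3 were tested. Aldh1a2, which makes retinoic acid in mesothelium and its derivatives, had 91.1 ± 40.9 CPM in pgWAT against 2.77 ± 2.33 in iWAT (log2 fold change 4.96, SE 0.26, FDR 2.97e-16), Snai1, a repressor of epithelial genes, was lower (-0.91, SE 0.26, FDR 0.006), and Spry1 did not pass (0.42, SE 0.27, FDR 0.233).

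**Figure D5:**
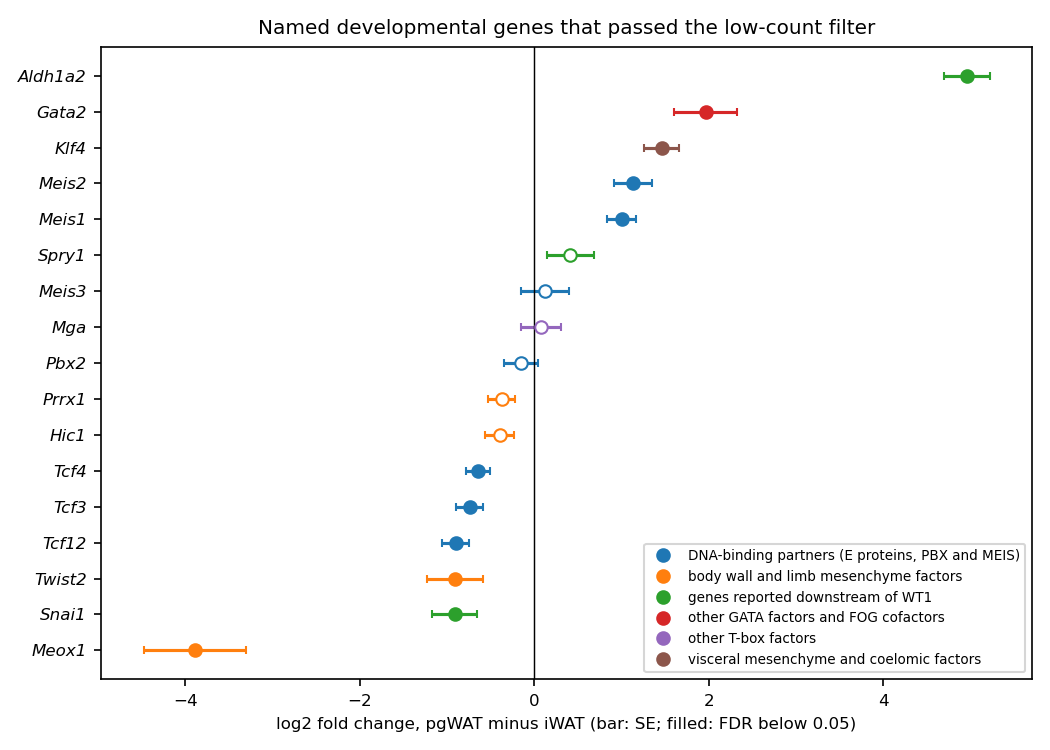
log2 fold change (pgWAT minus iWAT, with SE) of 17 of the 22 further developmental genes that passed the low-count filter, those named in the text, coloured by list, with filled points at an FDR below 0.05. Aldh1a2 (4.96) and Meox1 (-3.89) lie far from the rest, the 3 E proteins lie below 0, and Meis1 and Meis2 lie near 1.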

How the data were processed

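Crude SVF cultures were sequenced as bulk Smart-seq3 libraries. Per the labels and the study's methods, the authors trimmed adapters from the reads, quantified them with Salmon 1.9.0 on a GRCm39 transcriptome, used STAR 2.7.10a for quality control and removed libraries with few detected genes. They deposited Salmon's estimated counts per gene, not normalised. The study's methods describe a matrix of all reads, with or without a molecular barcode (UMI), so counts are of reads and not of molecules. The sources used here do not state whether counting used strand.

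From these, values were rounded to whole numbers, and gene symbols were matched for 52029 of 56953 rows. No 2 libraries held identical values. The 4 group means were fitted in 1 model with edgeR 4.0.16 (R 4.3.3): filterByExpr, TMM (factors 0.949 to 1.06), glmQLFit and glmQLFTest, two-sided, with Benjamini-Hochberg FDR over all genes tested. SE is the log2 fold change divided by the root of F. On simulated counts for the depot contrast (8590 genes), 88 of 99 genes changed by 1 log2 unit and 100 of 100 changed by 2 were recovered. CPM used library totals times TMM factors. DESeq2 1.42.0 and limma 3.58.1 served as alternatives. Counting intervals (exact, 95%) came from SciPy 1.17.1. Transcript lengths and neighbours came from GENCODE vM21 (GRCm38), which differs from the files' build, so no positions were carried over. A library matched its sex label in part where both Xist and Y-linked genes reached 3 counts.

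The factors and lists were chosen with earlier results of these data known. All 10 factors are named. Of each further list, up to 4 genes that passed are named by size of change, and some of these are not reported here. Mga, Prrx1, Hic1, Spry1, Pbx2, Meis3, Tcf3, Tcf4, Tbx5, Lhx8, Alx1 and single mesothelial markers were named outside this rule, after their values were seen. Like genes are the nearest 3 by RMS difference of z-scored log2 CPM (prior count 2). Replicate numbers follow accession order and pair nothing.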

Additional observations from a re-analysis of the deposited data

Results flagged for a closer look

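Within a group of 4 to 10 libraries, the gap of the highest or lowest library to its neighbour was set against the group's range (Dixon's 95% limit). Of 32 combinations of factor and group, 5 stood out. The limit flags about 1 in 20 groups of normally distributed values, a rate that does not hold for counts this low. A single count in a group otherwise at 0 is always flagged. Gata6 in pgWAT female replicate 5 was at 41.5 CPM (28 counts), against 17.5 CPM in the next of 6 libraries. The same library also had the highest Tcf21 and Wt1 values of the 10 pgWAT libraries. Gata6 in iWAT female replicate 9 was at 9.87 CPM, which is 4 counts, with the next library at 4.54 CPM. Nr2f1 in iWAT male replicate 2 was at 13.7 CPM, which is 7 counts, with the next at 7.61 CPM. Tbx15 in pgWAT male replicate 2 (1.73 CPM) and En1 in pgWAT male replicate 4 (1.07 CPM) were a single count each in groups otherwise at 0.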

How the results depend on the processing

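Of 253 recomputed counts of factors or genes passing, 248 stayed within 1.5 times the reported count. Without the low-count filter, 8 in place of 4 factors passed in the depot contrast, 5 in place of 3 in male, 6 in place of 3 in female, and 28 in place of 13 further genes, of which 13 had been under the filter and 15 had not. DESeq2 gave the factors no adjusted p between the sexes in pgWAT. Within well column 9, 2 factors passed, with fewer libraries. Leaving out each of the 29 libraries in turn gave 4 to 5 factors in the depot contrast, 3 to 4 in male, 3 to 4 in female, 0 to 0 in both sex contrasts and the interaction, and 12 to 15 further genes. The fifth factor was Gata6, which passed the filter without pgWAT male replicate 1, 2 or 3 (FDR 2.82e-06 to 7.43e-06). The smallest group was then smaller, and Gata6 passed through pgWAT, where it is high, so this is no support of its own. Of 867 recomputed values of single factors, 4 lost the call of Nr2f2 in the depot contrast (log2 fold change -0.61 with well column as a term, -0.73 without the 5 pgWAT libraries that did not match their sex label, -0.44 and -0.75 within columns 8 and 9) and 1 gained it in male (-0.90, FDR 0.0356, without iWAT male replicate 8). Over the 29 fits that left out 1 library, the FDR of Nr2f2 ranged from 0.00561 to 0.0425. Tcf21, Wt1 and Tbx15 passed in all 29. Among the further genes, Twist2 lost its call in 2 alternatives (highest FDR 0.157). RLE factors and total counts moved the median of all genes by 0.0024 and -0.0407. No paired analysis was possible because the labels give no replicate numbers. Depth limits Gata4, En1 and Shox2 most, at 10, 23 and 41 counts in all.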
